A study of Rattus norvegicus with 60 samples.

Results

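The miR-29 family in the rat consists of the mature miRs rno-miR-29a, rno-miR-29b and rno-miR-29c, which were taken here by their names on the array, leaving out the passenger strands (names ending in *). These are 3 of the 350 rat miRs on the array. The data came from whole retinas of 60 male Long Evans hooded rats weighing 250 to 300 g, with 1 array per rat. In 30 rats the pressure in 1 eye was raised to 110 mmHg for 60 min and then released, which is called ischemia-reperfusion (IR) injury, and the other 30 rats received sham surgery without high pressure (sham control). Retinas were collected either at 0 h or after reperfusion for 2 h, 24 h, 48 h or 7d, with 6 rats for each of the 10 combinations of treatment and time. No genotype, transgene or drug distinguished the groups, and all rats, sham control included, had the same anesthesia and eye drops.

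MiRs are short RNAs that pair with messenger RNAs, mostly through bases 2 to 8 of the miR (the seed), and lower the stability or translation of those messengers. The miR-29 family is best known for targeting messengers of extracellular matrix proteins, among them collagens and elastin, and it has also been linked to DNA methyltransferases and to pro-apoptotic BH3-only proteins in neurons. The family is transcribed from a pair of clusters, so that members made from the same primary transcript can still reach different mature levels.

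All 3 members were matched by name to mature sequences of RefSeq (assembly GRCr8). They are printed 5′ to 3′ to show what the members share, with the seed in capitals, and rno-miR-29c* is the passenger strand from the other arm of the rno-miR-29c hairpin.
rno-miR-29a: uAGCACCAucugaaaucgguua
rno-miR-29b: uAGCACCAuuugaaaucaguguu
rno-miR-29c: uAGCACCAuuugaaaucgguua
rno-miR-29c*: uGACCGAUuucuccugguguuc
The 3 members share the seed, and no other of the 693 mature rat miR names in the table has it. Counted from 1 at the 5′ end, rno-miR-29c differed from rno-miR-29a only by C10U (the base of rno-miR-29a is given first), so that 21 of 22 bases were identical. Between rno-miR-29a and rno-miR-29b, C10U, G18A, U21G and A22U separated the members over the 22 bases that both have. Between rno-miR-29b and rno-miR-29c the differences were A18G, G21U and U22A. A probe on an array can bind a near-identical miR, so part of the signal of each member may come from another member, and this was not tested.

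The hairpins of the family lie in 2 clusters in GRCr8. The mature rno-miR-29a lies at chr4:60617968-60617989 on the minus strand, in the microRNA gene Mir29a, and Mir29b1 lies 291 bases away. The mature rno-miR-29b of Mir29b2 lies at chr13:109098882-109098904 and rno-miR-29c of Mir29c at chr13:109099412-109099433, both on the plus strand, with 447 bases between the hairpins. Mir29b1 and Mir29b2 give the same mature rno-miR-29b, so its signal cannot be divided between the clusters. Here are the 4 hairpins, with the mature strand in capitals, to show where each member sits.
Mir29a: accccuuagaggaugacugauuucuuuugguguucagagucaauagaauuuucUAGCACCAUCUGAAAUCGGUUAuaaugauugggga
Mir29b1: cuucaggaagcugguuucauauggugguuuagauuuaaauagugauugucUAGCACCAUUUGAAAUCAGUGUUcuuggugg
Mir29b2: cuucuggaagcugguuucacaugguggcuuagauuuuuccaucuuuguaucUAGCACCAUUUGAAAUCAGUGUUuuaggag
Mir29c: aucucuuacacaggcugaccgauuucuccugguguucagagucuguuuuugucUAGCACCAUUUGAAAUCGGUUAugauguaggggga

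Each value is a total signal, the fluorescence intensity of all probes of a miR after background subtraction. It was divided by the 75th percentile of the array's signals over the 57 miRs detected on all 60 arrays and is given on the log2 scale. The brightness of an array is the log2 of that percentile. The IR arrays were dimmer at 24 h (brightness 8.27 ± 0.57, SD, n = 6) than the sham control arrays (10.42 ± 0.35, SD, n = 6), and again at 7d (8.16 ± 0.47 against 10.74 ± 0.24), without overlap at either time. They were also dimmer on average, with overlap, at 0 h (9.34 ± 0.89 against 10.40 ± 0.49) and at 48 h (9.26 ± 0.85 against 10.45 ± 0.30). At 2 h brightness was similar (9.84 ± 0.58 against 9.80 ± 0.41). The 60 arrays lay on 9 slides, of which 3 held only IR arrays, 4 only sham control arrays and 2 both, and no slide held both treatments of the same time point. Slide and treatment could therefore hardly be told apart, and values fitted with the slide as a block are given beside the results. The retinal label was checked with miRs known from retina. All 3 photoreceptor miRs were detected on every array, with summed levels of 13.59 to 13.90 in sham control at 0 h, and the blood cell miRs rno-miR-144 and rno-miR-451 were at the floor of the log2 values.

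All 3 members were detected on all 60 arrays, with no saturated spot. By median signal rno-miR-29a ranked 4, rno-miR-29c ranked 5 and rno-miR-29b ranked 11 among the 350 miRs, which is a rank of total signals and not of molecules, because probes differ in brightness. The group means of rno-miR-29a spanned 11.11 (sham control, 48 h) to 11.49 (IR, 24 h). Those of rno-miR-29b spanned 10.11 (sham control, 2 h) to 10.64 (sham control, 7d), and those of rno-miR-29c spanned 10.84 (IR, 48 h) to 11.27 (sham control, 7d). When the 10 groups were put in order of their means, no neighbouring groups of any member passed after adjustment over 27 comparisons. The exact permutation test of 6 arrays against 6 gives no p below 0.00216, so a lone pair could not pass even without overlap. Ordering by the means also set the groups with the closest means beside each other. This result therefore does not show that the groups were alike. The smallest p was that of rno-miR-29b in sham control against IR at 24 h (p = 0.00216 and adjusted p = 0.0584 by an exact permutation test, two-sided).

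**Figure D1:**
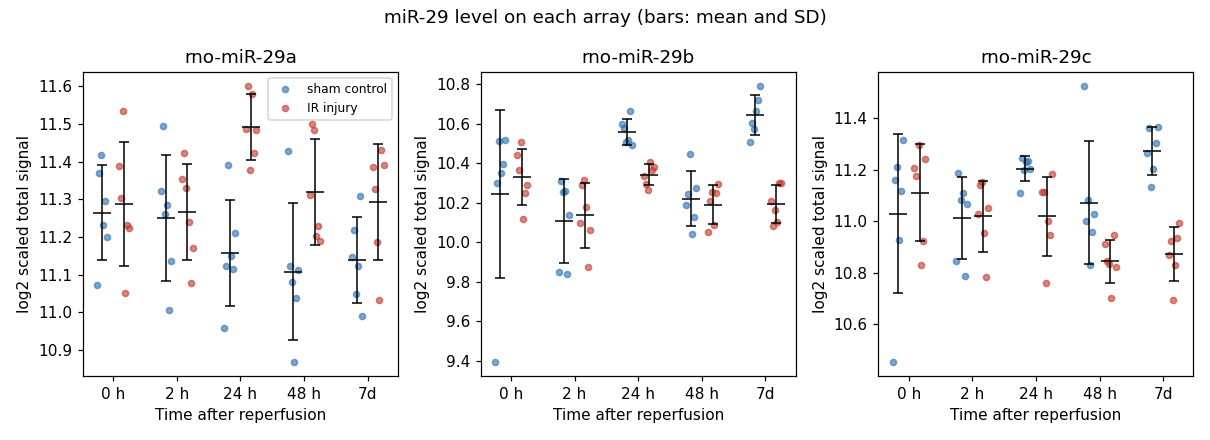
Log2 scaled total signal of rno-miR-29a, rno-miR-29b and rno-miR-29c on each of the 60 arrays by time after reperfusion, sham control in blue and IR injury in red, with the mean and SD of each group of 6 as black bars. The IR arrays of rno-miR-29b lie below all sham control arrays at 24 h and 7d, and those of rno-miR-29c at 7d.

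No member changed by the 2-fold limit that the study's methods set, at any of the 5 time points, in the fit with limma over all 159 miRs tested. By that rule (fold change of at least 2 and adjusted p of at most 0.05) the share of all tested miRs called was 6.92% at 0 h, 5.03% at 2 h, 18.2% at 24 h, 13.8% at 48 h and 18.2% at 7d. The changes below were smaller than 2-fold. They are described by the adjusted p alone, and by that rule 24.5% of all tested miRs were higher and 35.8% lower at 24 h, 19.5% and 35.2% at 48 h, and 20.1% and 39.6% at 7d. A share this large means that passing the adjusted p did not set a member apart from the other miRs. The median change of all tested miRs was -0.13, -0.15 and -0.15 at these times on the log2 scale.

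At 0 h and 2 h no member passed the test in this scaling. The differences of IR minus sham control lay between 0.01 and 0.08 on the log2 scale for all 3 members, and the smallest adjusted p was 0.686 (limma). At 0 h the 95% interval of the difference ran from -0.15 to 0.19 for rno-miR-29a, from -0.13 to 0.30 for rno-miR-29b and from -0.12 to 0.28 for rno-miR-29c. Some other ways of processing turned their direction. When arrays were scaled over all 350 miRs, rno-miR-29a at 0 h was lower by 0.30 after IR injury (adjusted p = 0.00684) and rno-miR-29c by 0.24 (adjusted p = 0.0418), where the median of all tested miRs was -0.29. In the authors' normalized table rno-miR-29a was lower by 0.29 (adjusted p = 0.0129), and with another background correction (normexp with an offset of 50) by 0.26 (adjusted p = 0.0300). In the fit that had slides as blocks, differences of the 3 members ranged from -0.14 to -0.03 at 0 h and from -0.17 to -0.09 at 2 h, and none passed. At 0 h, 10.7% of the tested miRs were higher and 1.89% lower by the adjusted p, and at 2 h 7.55% were higher and 0% lower.

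At 24 h rno-miR-29a rose after IR injury, by 1.26-fold. Its IR arrays ran from 11.38 through a median of 11.49 to 11.60, and its sham control arrays from 10.96 through 11.14 to 11.39. All 6 IR arrays lay above the sham control mean, and the groups overlapped by a narrow margin. The difference was 0.33 (SE 0.085) on the log2 scale (limma, adjusted p = 0.000878), and it exceeded that at 2 h by 0.32 (adjusted p of the difference between time points = 0.0440, where 23.9% of all tested miRs passed). Under the 4 alternatives run for that difference between time points it lay between 0.04 and 0.37 and did not pass, with adjusted p-values of 0.14 to 0.793. The rise depended on how arrays were scaled and blocked: it was 0.02 (adjusted p = 0.827) with the 75th percentile over all 350 miRs, -0.02 (adjusted p = 0.842) in the authors' normalized table and -0.03 (adjusted p = 0.876) with the slide as a block. With the percentile over all miRs and in the authors' table the median of all tested miRs was -0.42 and -0.50. Rno-miR-29a lay 0.46 above the median in the scaling used here, 0.44 above it with the percentile over all miRs and 0.48 above it in the authors' table, against 0.19 with the slide as a block. With normexp it was -0.05 where the median was 0.87, and so lay 0.92 below it. Its place against the median thus also depended on the processing.

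At 48 h the difference of rno-miR-29a was smaller. Its IR arrays ran from 11.19 through 11.27 to 11.50 and its sham control arrays from 10.87 through 11.10 to 11.43, a difference of 0.21 (limma, adjusted p = 0.0356) with overlap. With the slide as a block that difference was -0.12 (adjusted p = 0.482). It passed in the opposite direction with the mean over probes (-0.24, adjusted p = 0.0214) and with normexp (-0.23, adjusted p = 0.0381). The adjusted p was above 0.05 without IR replicate 2 or 3 or without sham control replicate 3, 4 or 5 of 48 h, up to 0.119. At 7d the difference was 0.15 (adjusted p = 0.111, or 0.0384 without IR replicate 4 and 0.00494 by quantile normalization), with IR arrays from 11.03 through 11.36 to 11.43 and sham control arrays from 10.99 through 11.13 to 11.31.

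Rno-miR-29b moved in the other direction, and its fall after IR injury was clearest at 7d. At 7d its IR arrays ran from 10.08 through 10.19 to 10.30 and its sham control arrays from 10.51 through 10.64 to 10.79. Every IR array lay below every sham control array, as was the case for 41.5% of all tested miRs at that time. The IR level was 0.732 times the sham control level, a log2 difference of -0.45 (SE 0.106) with an adjusted p of 0.00033 in limma. With the slide as a block the difference was -0.40 (adjusted p = 0.0669), and with array brightness as a covariate -0.43 (adjusted p = 0.056), which ended the call while the size stayed similar.

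At 24 h rno-miR-29b was also below sham control on every array, a pattern found for 34% of all tested miRs at 24 h. Its IR arrays ran from 10.26 through 10.35 to 10.41 and its sham control arrays from 10.49 through 10.55 to 10.66. The difference of -0.22 missed the threshold in the fit over all groups (limma, adjusted p = 0.069), and it was -0.30 with the slide as a block (adjusted p = 0.249). It passed in 7 of 17 alternatives, among them the percentile over all miRs (-0.53, adjusted p = 0.000124) and the authors' table (-0.57, adjusted p = 3.1e-05), where the median of all tested miRs was also lower, at -0.42 and -0.50. At 48 h the groups overlapped fully, with a difference of -0.03 (adjusted p = 0.804). The step from 48 h to 7d was -0.42 with an unadjusted p of 0.00697 and did not pass the adjustment (adjusted p = 0.111).

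Rno-miR-29c followed rno-miR-29b at 7d. Its IR arrays ran from 10.69 through 10.90 to 10.99 and its sham control arrays from 11.13 through 11.29 to 11.37, again without overlap. The IR level was 0.759 times that of sham control, a log2 difference of -0.40 (SE 0.099) with an adjusted p of 0.000608 in limma. It was -0.37 with the slide as a block (adjusted p = 0.0604) and -0.31 with brightness as a covariate (adjusted p = 0.16), so that the call was lost under both. Set against the median of all tested miRs at 7d, rno-miR-29b lay 0.30 and rno-miR-29c 0.25 below it. With quantile normalization they fell by 0.36 and 0.31 with a median of -0.34, and lay -0.02 and 0.03 from it, so a fall relative to all miRs was not seen there. At 24 h rno-miR-29b lay -0.09 from the median in the scaling used here.

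Before 7d the change of rno-miR-29c was smaller. At 48 h the difference was -0.23 (limma, adjusted p = 0.0481), with IR arrays from 10.70 through 10.84 to 10.95 and sham control arrays from 10.83 through 11.02 to 11.53. These groups overlapped, at 48 h only 15.1% of all tested miRs did not, and sham control replicate 1 stood above the rest. Without that array the difference was -0.14 (adjusted p = 0.21), and the adjusted p was also above 0.05 without IR replicate 1, 2, 3, 4 or 6 or without sham control replicate 3 or 6 of 48 h. With the slide as a block it was -0.25 (adjusted p = 0.226), and as a random block -0.23 (adjusted p = 0.0705). At 24 h the difference was -0.19 (adjusted p = 0.0946), or -0.23 with the slide as a block (adjusted p = 0.331). It was -0.50 with the percentile over all miRs (adjusted p = 2.5e-05) and -0.54 in the authors' table (adjusted p = 7.1e-06).

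**Figure D2:**
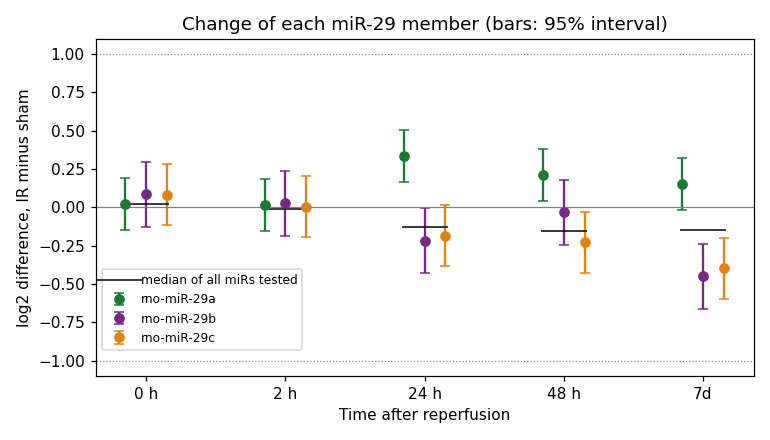
Log2 difference of IR minus sham control for each member (points) with its 95% interval from limma at each time after reperfusion, black dashes marking the median of all 159 miRs tested and dotted lines the 2-fold limit. At 24 h rno-miR-29a lies at 0.33 while rno-miR-29b and rno-miR-29c lie at -0.22 and -0.19, and at 7d they lie at 0.15, -0.45 and -0.40, while the 24 h value of rno-miR-29a is -0.02 in the authors' normalized table.

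The lower levels after IR injury stood against sham control levels that themselves differed between time points. The IR mean of rno-miR-29b at 7d, 10.19 ± 0.09 (SD, n = 6), was close to the sham control means at 0 h (10.24 ± 0.43), 2 h (10.11 ± 0.21) and 48 h (10.22 ± 0.14). It was the sham control at 24 h (10.56 ± 0.07) and 7d (10.64 ± 0.10) that stood higher. Between sham control at 7d and at 0 h rno-miR-29b differed by 0.40 (limma, adjusted p = 0.0279, where 5.66% of all tested miRs were higher). Without sham control replicate 1 of 0 h, the lowest array at 9.39, it was 0.23 (adjusted p = 0.116), so this call rested on that array. Rno-miR-29c showed sham control means of 11.03 ± 0.31 at 0 h and 11.27 ± 0.09 at 7d (adjusted p = 0.105). For this member the IR means at 48 h (10.84 ± 0.08) and 7d (10.87 ± 0.10) were below all 5 sham control means.

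The members could also be compared within each array, since the difference of the log2 signals of 2 miRs on the same array does not change with a constant scaling factor of that array. For each pair of members, IR and sham control were compared with an exact two-sided permutation test of 6 arrays against 6, whose smallest p is 0.00216, with adjustment over 15 comparisons. At 0 h and 2 h no pair passed this test: the differences lay between -0.02 and 0.06, and the widest 95% interval, that of rno-miR-29b minus rno-miR-29a at 0 h, ran from -0.25 to 0.38. Among the 1596 pairs of the 57 miRs detected on all arrays, 1.57% did not overlap at 0 h and 2.44% at 2 h.

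From 24 h onward rno-miR-29c was lower against rno-miR-29a after IR injury. At 24 h rno-miR-29c minus rno-miR-29a was -0.47 ± 0.12 (SD, n = 6) on the IR arrays, with a range of -0.62 to -0.30, and 0.05 ± 0.13 on the sham control arrays, with a range of -0.19 to 0.15. The groups did not overlap, and the difference was -0.52 (SE 0.072, adjusted p = 0.00649, exact permutation test). At 48 h it was -0.44 (SE 0.070) and at 7d -0.55 (SE 0.071), each without overlap and with the same adjusted p. Rno-miR-29c and rno-miR-29a differ by 1 base and share their seed, so this comparison concerns the makeup of a pool of miRs with the same seed.

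Rno-miR-29b fell against rno-miR-29a as well. At 24 h rno-miR-29b minus rno-miR-29a ranged from -1.31 to -1.06 on the IR arrays and from -0.88 to -0.36 on the sham control arrays, a difference of -0.55 (SE 0.084, adjusted p = 0.00649, exact permutation test). At 7d it was -0.60 (SE 0.081), again without overlap and with the same adjusted p. At 48 h it was -0.24 with overlap (adjusted p = 0.0974, or 0.0216 without sham control replicate 1). The mean on IR arrays was -0.96 at 0 h, -1.13 at 2 h, -1.15 at 24 h, -1.13 at 48 h and -1.10 at 7d. On sham control arrays it was -1.02, -1.14, -0.60, -0.89 and -0.50. The larger movement over time was thus in the sham control arrays.

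Such non-overlap was common on these arrays. Of all 1596 pairs of miRs, 38% did not overlap at 24 h, 17.4% at 48 h and 47.7% at 7d, so the unequal movement of the miR-29 members was not particular to them. With the slide as a block in a linear model over the 60 arrays, the differences shrank. Rno-miR-29c minus rno-miR-29a was then -0.20 for 24 h (95% interval -0.41 to 0.02), -0.13 for 48 h (-0.33 to 0.06) and -0.20 for 7d (-0.39 to -0.01). Rno-miR-29b minus rno-miR-29a was -0.27 at 24 h, with an interval of -0.57 to 0.04. Its 48 h value was 0.06 (-0.22 to 0.33) and its 7d value -0.24 (-0.50 to 0.03). Of these intervals, only that of rno-miR-29c minus rno-miR-29a at 7d lay wholly below 0. Scans were balanced between treatments, and within each of the 3 scan days both differences were negative at 24 h, 48 h and 7d. For rno-miR-29c minus rno-miR-29a the 24 h values ran from -0.57 to -0.30, the 48 h values from -0.56 to -0.25, and the 7d values from -0.63 to -0.43.

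Rno-miR-29c and rno-miR-29b were also set against each other, and their difference passed the test at no time point. Both are encoded on chromosome 13, but rno-miR-29b is also encoded on chromosome 4, beside rno-miR-29a. Rno-miR-29c minus rno-miR-29b differed between the treatments by 0.03 at 24 h (95% interval -0.12 to 0.18) and by 0.05 at 7d (-0.08 to 0.18). At 48 h the difference was -0.20 (-0.45 to 0.05, adjusted p = 0.139, exact permutation test). Over the 60 arrays the Pearson r of the levels was 0.760 between rno-miR-29b and rno-miR-29c, 0.0987 between rno-miR-29b and rno-miR-29a and 0.176 between rno-miR-29c and rno-miR-29a. These are descriptions across arrays that share scaling and groups.

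**Figure D3:**
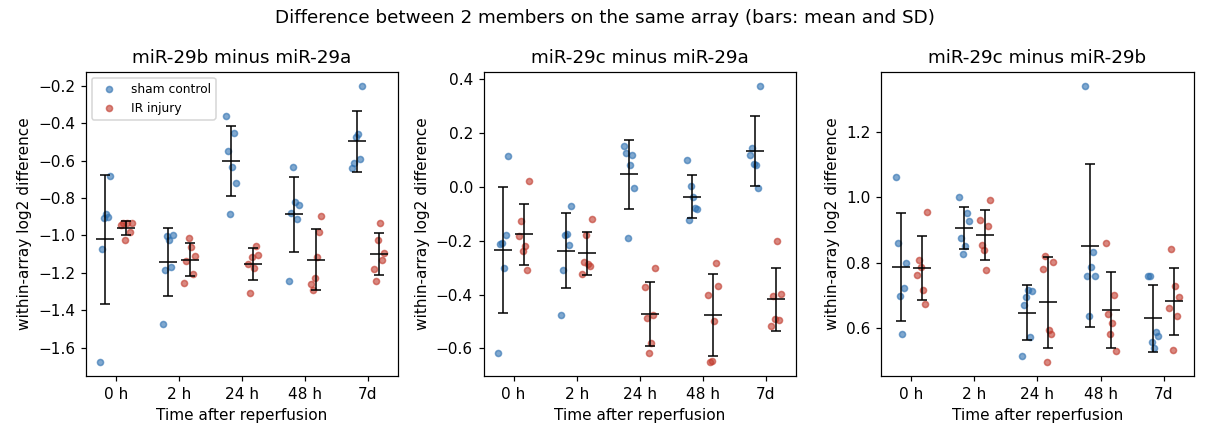
Within-array log2 difference between 2 members on each of the 60 arrays by time after reperfusion, sham control in blue and IR injury in red, with the mean and SD of each group of 6 as black bars. The IR arrays separate from the sham control arrays at 24 h and 7d in the left and middle panels and at 48 h in the middle panel, while rno-miR-29c minus rno-miR-29b overlaps at all 5 times.

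Because IR arrays were dimmer, the within-array differences were set against brightness. Within groups, rno-miR-29b minus rno-miR-29a changed by -0.01 and rno-miR-29c minus rno-miR-29a by 0.01 per log2 unit of brightness (r of the deviations from the group means -0.041 and 0.054, 60 arrays). With these slopes removed the differences at 7d were -0.64 and -0.52. Slopes of this kind came from differences within groups, whereas brightness did not overlap between the treatments at 24 h and 7d. They cannot decide the part of that gap, which was not tested. The passenger strand gave a steeper slope. Rno-miR-29c minus rno-miR-29c* was lower after IR injury by 0.39 at 24 h and by 0.54 at 7d without overlap (exact permutation test, adjusted over 5 time points, p = 0.00541 at each) and by 0.24 at 48 h with overlap (adjusted p = 0.0144), a pair chosen after its values were seen. This difference rose by 0.14 per log2 unit of brightness within groups, with a positive slope in 10 of 10 groups. With that slope removed it was -0.09 at 24 h and -0.07 at 48 h (adjusted p = 0.375 at each) and -0.18 at 7d (adjusted p = 0.0216), and with the slide as a block its 95% intervals included 0 at every time point.

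**Figure D4:**
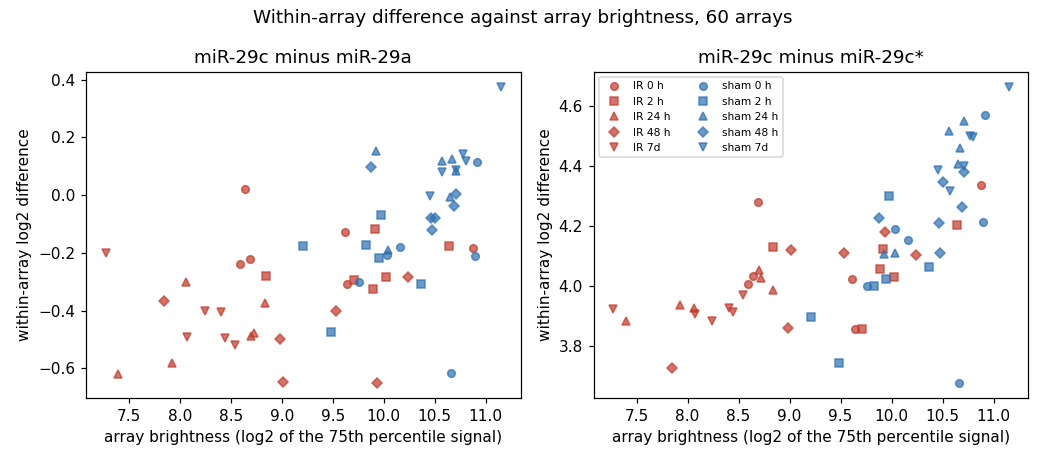
Within-array log2 difference of rno-miR-29c minus rno-miR-29a (left) and of rno-miR-29c minus its passenger strand rno-miR-29c* (right) against array brightness, the log2 of the 75th percentile signal, for 60 arrays with IR in red, sham control in blue and a symbol per time point. Within groups the left difference changes by 0.01 and the right by 0.14 per log2 unit, and the IR arrays of 24 h and 7d lie at the dim end.

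The other passenger strands were hardly measurable. Of the 4 passenger strands on the array, rno-miR-29a* and rno-miR-29b-2* were detected on at most 1 array of any group, rno-miR-29b-1* on at most 3, and only rno-miR-29c* was tested. Rno-miR-29c* was detected on all arrays at group means of 6.81 to 7.05, and its total level did not pass the adjusted p at any time point. At 24 h its level was 7.05 ± 0.14 after IR injury and 6.85 ± 0.16 after sham surgery (SD, n = 6).

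The total signal of each member sums 2 probes of different length with 10 spots each, annotated on the rat build rn4 (chromosome 4 for rno-miR-29a, chromosome 13 for the others). Both probes of rno-miR-29b fell at 7d, by 0.51 (longer probe) and 0.57 (shorter probe) on the log2 scale, and both probes of rno-miR-29c by 0.45 and 0.49, each without overlap between the groups. By total signal, 41.5% of all tested miRs did not overlap at 7d and 34% at 24 h. The 2 probes of a member were read on the same arrays, so they are not separate samples. The probes of rno-miR-29a disagreed. Its longer probe, which carried most of the signal (mean 11.96 on IR arrays at 24 h against 8.48 for the shorter), was higher after IR injury by 0.35 at 24 h with every IR array above every sham control array. Its shorter probe differed by -0.02 at 24 h and by -0.27 at 7d. With the shorter probes alone, the within-array differences at 24 h were -0.28 for rno-miR-29b minus rno-miR-29a (adjusted p = 0.0455) and -0.21 for rno-miR-29c minus rno-miR-29a (adjusted p = 0.0325), by exact permutation tests. At 7d they were -0.30 (adjusted p = 0.0406) and -0.22 (adjusted p = 0.0325), smaller than the -0.60 and -0.55 of the total signals.

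**Figure D5:**
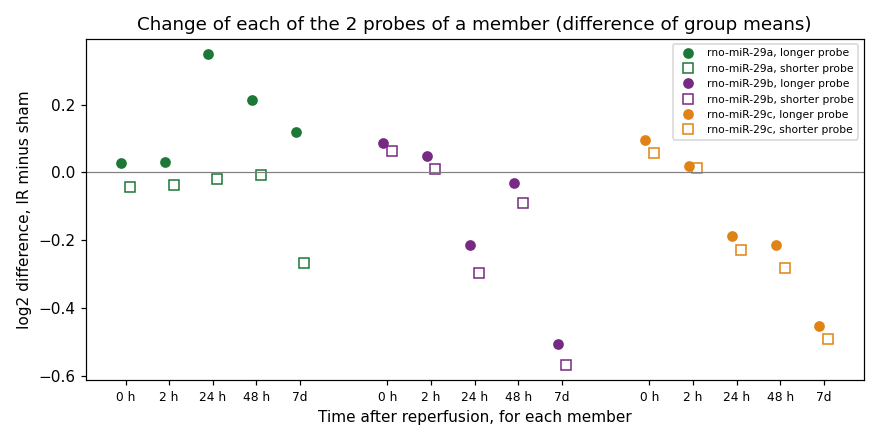
Log2 difference of the group means, IR minus sham control, for the longer (filled circles) and the shorter probe (open squares) of each member at the 5 time points, from left to right within each member. The probes of rno-miR-29b and of rno-miR-29c move together, whereas those of rno-miR-29a lie at 0.35 and -0.02 at 24 h and at 0.12 and -0.27 at 7d.

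The miRs with levels most like those of each member were found by Pearson r over the 60 arrays. For rno-miR-29a they were rno-miR-338* (0.625), rno-miR-324-3p (0.624) and rno-miR-92a (0.616). Rno-miR-92a was higher after IR injury by 0.60 at 24 h (limma, adjusted p = 2.1e-08). For rno-miR-29b they were rno-miR-101a (0.741), the photoreceptor miR rno-miR-96 (0.730) and rno-miR-136 (0.699, detected on 38 arrays). For rno-miR-29c they were rno-miR-30e (0.692), rno-miR-101a (0.630) and rno-miR-376a (0.582, detected on 25 arrays). Rno-miR-101a was lower after IR injury by 0.42 at 24 h (adjusted p = 0.00667) and by 0.55 at 7d (adjusted p = 0.000518). Rno-miR-96 differed by -0.01 and -0.14 at these times, with adjusted p-values of 0.939 and 0.285.

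Lists of other miRs linked to the same processes as the family were also examined. By the 2-fold rule, 18.2% of all tested miRs were called at 24 h, 13.8% at 48 h and 18.2% at 7d. Beside these shares, calls among the 6 and 11 miRs tested from the lists below say little. Of the miRs linked to matrix and fibrosis, 6 of the 11 on the array were tested, and by the 2-fold rule rno-miR-21, a miR widely induced by tissue injury, was called higher at 24 h, 48 h and 7d. Its level was 10.71 ± 0.17 in IR and 8.50 ± 0.19 in sham control at 24 h (SD, n = 6), a difference of 2.21 (limma, adjusted p = 2.1e-16). Rno-miR-101b was called lower at 7d by 1.06 (adjusted p = 4.9e-05), where it was detected on 1 IR array and 6 sham control arrays, and no other member of that list was called at any time. By the adjusted p alone 3 of the 6 were lower at 24 h, 0 at 48 h and 3 at 7d, against the 35.8%, 35.2% and 39.6% of all tested miRs given above, and 1 was higher at each of these times. The median change of the list at 24 h was -0.13 to 2 decimals, as was that of all tested miRs. Of the miRs linked to neuronal death and survival, 11 of 13 were tested and 0 were called at any time point (limma), and by the adjusted p alone 1 was higher and 1 lower at 24 h, 2 and 4 at 48 h, and 3 and 2 at 7d, again beside 24.5% and 35.8%, 19.5% and 35.2%, and 20.1% and 39.6% of all tested miRs.

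Among markers of other cell types, the summed levels of leukocyte and muscle miRs were higher in IR at 24 h and 7d, though most of these miRs were detected on no IR array then. The part of any cell type in the miR-29 changes was not tested. Vascular miRs summed to 6.37 in IR and 6.56 in sham control at 24 h, and to 6.61 and 6.60 at 7d. Pigment epithelium miRs summed to 10.75 and 11.16 at 24 h, and to 10.80 and 10.99 at 7d. The ranges of both lists overlapped between the treatments at both times. The summed level of the 5 leukocyte miRs was 6.17 (5.64 to 7.07) in IR and 5.19 (5.04 to 5.63) in sham control at 24 h, and 6.24 (5.73 to 6.77) and 5.33 (5.12 to 5.65) at 7d. On IR arrays of both times 4 of these 5 were detected on no array, so the sum does not show a rise of leukocyte miRs. Undetected signals entered these sums and were divided by a lower percentile on the dimmer IR arrays, and the part of this was not tested. The 1 leukocyte miR tested, rno-miR-150, went the other way, with differences of -0.37 at 24 h (limma, adjusted p = 0.0853), -0.73 at 48 h (adjusted p = 0.0013) and -0.96 at 7d (adjusted p = 3.5e-05), and it was detected on 0 of 6 IR arrays and on 6 of 6 sham control arrays at 7d. It entered the test only because sham control at 7d had it on all 6 arrays. Its 7d result was thus partly fixed by that filter and is no support for a change. The summed level of the 4 muscle miRs was 7.76 (7.24 to 8.19) against 6.11 (5.85 to 6.34) at 24 h and 7.18 (6.83 to 7.48) against 6.10 (5.81 to 6.41) at 7d, and rno-miR-206 among them was called higher at all 5 times. Of these 4 miRs, 3 were detected on no IR array at either time, and 1 on no sham control array, so the sums do not show a rise of all 4. The 5 retinal neuron miRs summed to 13.71 (13.62 to 13.79) in IR and 13.74 (13.50 to 13.98) in sham control at 24 h, and to 13.67 (13.55 to 13.82) and 13.75 (13.52 to 14.06) at 7d. Singly, 4 of the 5 were lower by the adjusted p at 24 h (median of the 5 -0.37), 3 at 48 h (-0.33) and 3 at 7d (-0.46), and 0 were higher. Of all tested miRs, 35.8%, 35.2% and 39.6% were lower by that rule at these times, so counts out of 5 say little. In whole retina, fewer cells of a type and less RNA per cell cannot be told apart.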

How the data were processed

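Cy3-labeled RNA (100 ng of total RNA, integrity number above 8) was hybridized to Agilent rat miR arrays. The authors extracted spot intensities with Agilent Feature Extraction 9.5.3.1, per the file headers, which subtracted background, and the deposited intensities were not normalized between arrays. A second deposited table, of log2 values that the authors scaled to the 75th percentile in GeneSpring, served as an alternative.

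Groups and replicate numbers came from the labels. Total signals of the 350 miRs were divided by the array's 75th percentile of 57 miRs, raised to a floor of 6.20 (log2 2.63) and taken to log2. The 159 miRs detected on all 6 arrays of a group were tested in 1 fit of 10 groups with limma 3.58.1 (R 4.3.3), with Benjamini-Hochberg adjustment over these miRs. Exact permutation tests and linear models used scipy 1.17.1 and numpy 2.4.6 (Python 3.11.15). The members, the lists and the cell markers were chosen with earlier results of these data known. Named miRs are the 3 members, the 3 miRs most correlated with each, and at most 4 called miRs per list and time point. In simulated data for 24 h, 189 of 400 changes of 0.4 on the log2 scale passed the adjusted p and 360 of 400 changes of 1.5 were called. Among 2380 unchanged miRs, 119 passed the adjusted p and 2 were called. Unchanged miRs thus made up a larger share of those passing than the threshold of 0.05 allows, so the adjusted p was too lenient in this check. The simulated noise was independent between miRs and held no slide effect. Precision was limited by the number of arrays. Alternatives changed the scaling, background correction, probe summary, floor, filter, block and test, or left out 1 array. The slide as a random block, the slide as a block for within-array differences, brightness slopes, single probes and normexp with offset 0 were added after the data were seen. Messenger RNA arrays were not analysed here.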

Additional observations from a re-analysis of the deposited data

Results flagged for a closer look

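Dixon's test at the 95% level marked 5 of 60 sets of 6 arrays, and chance marks about 1 in 20 groups. Rno-miR-29b stood at 9.39 on sham control replicate 1 of 0 h, below the other arrays of that group. Rno-miR-29c stood at 11.11 on sham control replicate 1 of 24 h, below the others of a narrow group, and at 11.53 on sham control replicate 1 of 48 h, above the others. Within arrays, rno-miR-29c minus rno-miR-29a was -0.20 on IR replicate 4 of 7d, and rno-miR-29c minus rno-miR-29b was 1.34 on sham control replicate 1 of 48 h, each above the rest of its group. The change of rno-miR-29a after IR injury was larger at 24 h than at 2 h by 0.32 (limma, adjusted p of the difference = 0.0440), and under the 4 alternatives run for it the difference lay between 0.04 and 0.37 with adjusted p-values of 0.14 to 0.793, so that none passed.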

How the results depend on the processing

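Values here are log2 differences of IR minus sham control. Under all 17 alternatives run for them, the falls of rno-miR-29b and rno-miR-29c at 7d kept their direction, and the adjusted p passed in 15, all but the slide block and the brightness covariate. Several of the 17 leave the difference itself as it was, such as another floor, filter or test, the replicate or scan day block and the time point alone. The 15 are therefore not separate checks. By the adjusted p alone instead of the 2-fold rule, the calls were rno-miR-29a at 24 h (0.33) and 48 h (0.21), rno-miR-29c at 48 h (-0.23) and 7d (-0.40) and rno-miR-29b at 7d (-0.45). The number of members with an adjusted p of at most 0.05 at 0 h was 0, but 2 with the percentile over all miRs, 1 with normexp or the authors' table and 3 without normalization. At 24 h it was 1, but 2 with the percentile over all miRs, the authors' table, normexp, the mean over probes or a fit of the time point alone, 3 in exact permutation tests or without normalization, and 0 with the slide block. At 48 h it was 2, but 3, all lower, with normexp, the mean over probes or no normalization, 1 with the percentile over all miRs, quantiles, the authors' table, no filter or exact permutation tests, and 0 with the brightness covariate, either slide block or the time point alone. The sign of rno-miR-29a and of the small early values turned under some alternatives of scaling, background correction, probe summary or slide block. The cause was not tested. In the order rno-miR-29a, rno-miR-29b and rno-miR-29c, the 75th percentile over all miRs gave -0.30, -0.24 and -0.24 at 0 h and -0.023, -0.011 and -0.032 at 2 h, the mean over probes -0.16, -0.073 and -0.072 and then -0.085, -0.053 and -0.066, normexp with an offset of 50 gave -0.26, -0.22 and -0.30 and then -0.099, -0.066 and -0.12, and the slide block -0.14, -0.061 and -0.033 and then -0.17, -0.092 and -0.091. The authors' table gave -0.29, -0.22 and -0.23 at 0 h, with -0.0056 for rno-miR-29a and -0.015 for rno-miR-29c at 2 h. Quantile normalization gave -0.017 for rno-miR-29b at 0 h, -0.075 for rno-miR-29c at 2 h and 0.028 for rno-miR-29b at 48 h, and the slide as a random block gave -0.017 for rno-miR-29b and -0.035 for rno-miR-29c at 2 h. For rno-miR-29a, the authors' table gave -0.020 at 24 h and -0.097 at 7d, normexp -0.046 at 24 h, -0.23 at 48 h and -0.19 at 7d, the slide block -0.030, -0.12 and -0.17, the mean over probes -0.24 at 48 h and the percentile over all miRs -0.047 at 7d. Without normalization the dimmer IR arrays gave -1.04, -0.98 and -0.98 at 0 h, -1.82, -2.37 and -2.34 at 24 h, -0.98, -1.22 and -1.42 at 48 h, and -2.43, -3.03 and -2.98 at 7d.

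Differences between time points that changed sign were those of 2 h minus 0 h in the same order (0.27, 0.22 and 0.21 with the percentile over all miRs, 0.072, 0.019 and 0.0062 with the mean over probes, and 0.075 for rno-miR-29b by quantiles) and of 48 h minus 24 h (0.037 for rno-miR-29a and 0.12 for rno-miR-29c with the percentile over all miRs, -0.073 for rno-miR-29b with the mean over probes). Those of 7d minus 48 h were 0.27 for rno-miR-29a and 0.23 for rno-miR-29c with the mean over probes and 0.063 for rno-miR-29a by quantiles, which also gave 0.039 for 7d minus 24 h. In sham control, rno-miR-29c at 48 h minus 0 h was -0.034 with the percentile over all miRs and -0.012 with the mean over probes, and 2 h minus 0 h by quantiles was 0.039 for rno-miR-29a and 0.057 for rno-miR-29c.

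Within arrays, the slide block gave -0.27, 0.056 and -0.24 for rno-miR-29b minus rno-miR-29a at 24 h, 48 h and 7d, and for rno-miR-29c minus rno-miR-29a 0.079 at 2 h, -0.20 at 24 h and -0.13 at 48 h. Rno-miR-29c minus rno-miR-29a was 0.019 at 2 h with the mean over probes, 0.052 with the shorter probes and -0.033 at 0 h with normexp, which gave -0.064 at 24 h and -0.081 at 7d for rno-miR-29c minus rno-miR-29b. Permuting within scan days, rno-miR-29b minus rno-miR-29a at 48 h (-0.24) passed with an adjusted p of 0.0463. The replicate numbers did not pair the arrays (correlations of -0.449 to 0.601 over 30 pairs, median 0.108, 7 IR arrays correlated best with their own number). With the replicate block the 5 within-array differences that passed (-0.55 and -0.60 for rno-miR-29b and -0.52, -0.44 and -0.55 for rno-miR-29c, against rno-miR-29a) had an adjusted p of 0.067, since 6 pairs allow no p under 0.0312. In limma the block changed no call by the adjusted p.

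Leaving out each array in turn moved the differences at 0 h to -0.026 to 0.071, -0.085 to 0.14 and -0.034 to 0.14 for the 3 members, those at 2 h to -0.034 to 0.064, -0.027 to 0.080 and -0.040 to 0.053, and rno-miR-29b at 48 h to -0.066 to 0.015. Rno-miR-29b minus rno-miR-29a moved to -0.070 to 0.13 at 0 h, -0.054 to 0.041 at 2 h and -0.31 to -0.19 at 48 h, where it passed without sham control replicate 1. Rno-miR-29c minus rno-miR-29a moved to -0.019 to 0.13 at 0 h and -0.057 to 0.024 at 2 h, and rno-miR-29c minus rno-miR-29b to -0.24 to -0.099 at 48 h, where it passed without IR replicate 1. The other within-array calls held without any 1 array, as did those of rno-miR-29a at 24 h and of rno-miR-29b and rno-miR-29c at 7d.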
